A study of Mus musculus with 11 samples.

Results

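The early response genes described here are 10 mouse genes, Egr1, Egr2, Egr3, Ier2, Ier3, Ier5, Dusp1, Dusp6, Nr4a1 and Atf3. They were found as the rows of the deposited table whose Ensembl mouse gene identifier maps to these symbols. All 10 were among the 22104 genes listed, and all 10 passed the filter on low values that left 14729 genes for testing. Total RNA was sequenced from primary myoblasts, the dividing precursor cells of skeletal muscle, taken from the tibialis anterior muscle of young adult C57BL/6 mice (about 8 weeks). Cells in serum and basic fibroblast growth factor spent 6 h at 21% oxygen (normoxia) or 1% oxygen (hypoxia). There were 4 groups, wild-type normoxia (2 libraries), wild-type hypoxia (3 libraries), Bmal1-/- normoxia (3 libraries) and Bmal1-/- hypoxia (3 libraries). Bmal1, listed as Arntl, encodes an activator of the circadian clock, and the Bmal1-/- cells are called knockout below. The labels do not say whether the libraries of a group came from separate animals or cultures, so the p-values here rest on library-to-library spread, part or all of which may be technical. Values are normalized counts, that is, reads divided by a factor for the library's size. Differences were tested with limma, a linear model fitted over all tested genes, on log2(value + 1). A gene is called, or said to have risen or fallen, at an adjusted p under 0.05.

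Early response genes are transcribed within minutes of a growth factor or stress signal, from transcription factors already present in the cell, and need no new protein synthesis. Many are switched on through the ERK, p38 and JNK kinase cascades, which act on serum response factor and its partners or on CREB-type factors. The EGR and NR4A proteins and ATF3 are themselves transcription factors, the DUSP proteins remove phosphate from the kinases and so close the loop, and the IER proteins are small regulators of survival and stress responses. Serum and fibroblast growth factor, both in the culture medium here, are classic inducers of these genes. Levels were measured at a single time.

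Ier3 and Egr2 were the members that rose in hypoxia in both genotypes, and both were lower in knockout cells at both oxygen levels. Their promoter sequences are therefore shown first. The windows hold the 250 bases before a transcription start in the RefSeq annotation of GRCm38.p6. In the first sequence the capitals mark a copy of ACGTG, the core of the element bound by hypoxia-inducible factors. In the second they mark the E-box CACGTG, the element bound by CLOCK and BMAL1 and by other factors, and in the third a CArG box, the element bound by serum response factor.
Ier3, chr17:35821463-35821712, plus strand: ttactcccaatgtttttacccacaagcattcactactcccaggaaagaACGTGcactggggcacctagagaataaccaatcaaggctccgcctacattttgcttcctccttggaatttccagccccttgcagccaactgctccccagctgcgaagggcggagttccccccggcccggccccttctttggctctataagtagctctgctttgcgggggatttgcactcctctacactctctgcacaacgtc
Egr2, upstream start, chr10:67535249-67535498, plus strand: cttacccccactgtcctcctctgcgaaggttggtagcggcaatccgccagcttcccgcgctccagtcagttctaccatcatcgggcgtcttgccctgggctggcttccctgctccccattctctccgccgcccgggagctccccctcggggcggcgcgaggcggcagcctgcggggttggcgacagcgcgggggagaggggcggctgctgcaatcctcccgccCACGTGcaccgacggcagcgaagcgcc
Egr2, the third annotated start, chr10:67537619-67537868, plus strand: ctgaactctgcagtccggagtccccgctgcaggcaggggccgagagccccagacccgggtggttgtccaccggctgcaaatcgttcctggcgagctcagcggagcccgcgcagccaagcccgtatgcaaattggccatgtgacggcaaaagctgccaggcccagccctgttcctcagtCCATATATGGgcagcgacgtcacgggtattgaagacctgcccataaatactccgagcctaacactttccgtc

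RefSeq promoters were matched for 7 of the 10 members, and Egr1, Egr3 and Ier2 were not matched. Both strands were searched in each window. ACGTG, which any CACGTG contains on each strand, stood 202 to 198 bases before the Ier3 start and was found in 16.6% of all 32851 promoter windows of the same length. The E-box CACGTG stood 27 to 22 bases before the upstream Egr2 start and 126 to 121 bases before the Dusp1 start, and 6.02% of all windows held one. Egr2 has 5 annotated starts, and the windows of the 4 downstream starts each held a CArG box, against 1.47% of all windows. The windows of the last 3 of them overlap and share 1 box, so the boxes lay at 2 sites. In the sequence shown it lay 72 to 63 bases before the start. The cyclic AMP response element TGACGTCA, held by 1.55% of windows, stood 143 to 136 bases before the Dusp1 start. GCGTG, the other form of the hypoxia core, was found in 28.2% of windows, among them Nr4a1 and Atf3 with 2 copies each. The EGR site GCGNGGGCG stood 60 to 52 bases before the Nr4a1 start and occurred in 4.7% of windows. The windows of Dusp6 and Ier5 held none of these motifs. A match describes letters in a window and not a bound site.

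Most members are short genes with few exons. Positions are those of the GENCODE annotation of GRCm38. Ier3 (ENSMUSG00000003541) spans 1240 bp at chr17:35821684-35822923. Ier2 at chr8:84661331-84662852 and Ier5 at chr1:155096361-155099636 have a single annotated exon. Egr2 (ENSMUSG00000037868) lies at chr10:67535475-67542188 and Dusp6 (ENSMUSG00000019960) at chr10:99263231-99267489. Egr3 (ENSMUSG00000033730) lies at chr14:70077203-70082614, Nr4a1 at chr15:101254269-101274795 and Egr1 on chromosome 18. The longest by this annotation are Atf3 at chr1:191170296-191218039 and Dusp1 at chr17:26505590-26562128, both on the minus strand. The RefSeq starts behind the promoter windows, at 191183333 for Atf3, 26508472 for Dusp1 and 101266846 for Nr4a1, lie well inside these GENCODE spans. The members had a median span of 5287 bp, against 24889.5 bp for the 12774 tested protein-coding genes. Of the 10 members, 8 had no transcript with more than 5 exons, as did 26.5% of tested protein-coding genes. The exons of Dusp1 overlap those of Ergic1 on the opposite strand. The library kit keeps strand, but how strand entered the counting is not given in the sources used here, so reads of the pair may be split between them and Dusp1 values are uncertain. Ergic1 had a mean of 3317 normalized counts, its log2 differences lay between -0.12 and 0.03, and none was called.

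Recovered reads totalled 18707697 to 33613328 per library, and every hypoxia library was deeper than every normoxia library, and the part of depth in the hypoxia differences was not tested. The genotype labels were checked on Arntl, which measured 264 to 267 normalized counts in wild-type normoxia and 322 to 328 in wild-type hypoxia. In knockout cells Arntl measured 98.8 to 117 in normoxia and 128 to 134 in hypoxia, so the genotypes did not overlap but the transcript was not lost. Of 6 hypoxia check genes, such as Adm and Slc2a1, 6 rose in each genotype. By genotype in hypoxia, limma, edgeR and DESeq2 each called 2 of the 6 lower, beside 5.61% of tested genes by limma. In normoxia limma and edgeR called 0 of them and DESeq2 called 1 lower. Myoblast markers were present in every library, with sums of 48010.4 to 52081 normalized counts in wild-type and 53689 to 55958 in knockout libraries, which did not overlap, and by limma 3 of the 9 tested rose by genotype at each oxygen level. Leukocyte markers summed to 21.9 to 50.3, and 4 of 10 of them, Ptprc, Adgre1, Cd3e and Tyrobp, were not listed, with Cd79a at 0 in wild-type normoxia. Endothelial markers summed to 156 to 186 in wild-type and 114 to 154 in knockout libraries. Egfl7 alone measured 54.8 to 103 of this sum, while Cdh5, Tie1, Emcn and Cldn5 lay between 0 and 9.08 in every library and were not tested. By limma 1 of the 6 tested fell by genotype at each oxygen level (DESeq2 called 0 in normoxia, with 1 lower at an unadjusted p under 0.05).

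Normalized counts per kilobase of exon gave the order of the members by level (the plot of levels per exon length). In wild-type normoxia Dusp6 was the most abundant at 785 ± 9.32 (SD, n = 2), followed by Ier3 at 249.6 ± 21.8. Dusp1 at 207 ± 21.5 and Ier2 at 200.4 ± 0.159 did not differ beyond their spread. Below them came Ier5 at 129 ± 2.75, Egr1 at 93.8 ± 9.86 and Egr2 at 71.7 ± 0.261, neighbours whose libraries did not overlap. Nr4a1 at 29.8, Atf3 at 18.9 and Egr3 at 9.38 were the lowest. The order was different in wild-type hypoxia, where the Ier3 libraries, at 711 to 834 per kilobase, spanned those of Dusp6, at 783 to 793. Over all 11 libraries Dusp6 stood at percentile 91.9 of tested protein-coding genes by this measure, Ier3 at percentile 87.1 and Egr3 at percentile 9.9. Egr3 and Atf3 were low, with 12 to 64 and 29 to 63 reads per library.

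**Figure D1:**
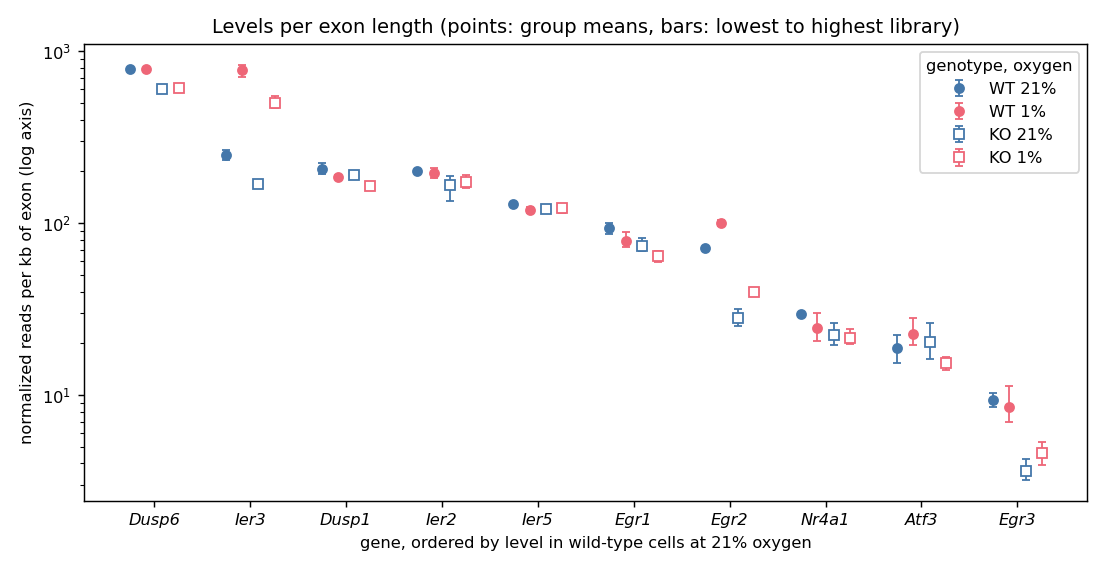
Normalized counts per kilobase of exon, on a log axis, for each member in the 4 groups. Points are group means and bars run from the lowest to the highest library. Ier3 in hypoxia reaches the level of Dusp6 in wild-type cells, and Egr3 is the lowest member in every group.

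The first question is how 6 h at 1% oxygen changed these genes in wild-type myoblasts. Ier3 and Egr2 rose, and none of the other 8 members was called. These 2 of 10 stand beside 1.7% of all tested genes that rose and 0.468% that fell. At an unadjusted p under 0.05, 2 members were higher and 2 lower, beside 13.6% of tested genes in either direction. The median log2 difference of the members was -0.08, against 0.00 for all tested genes.

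Ier3 encodes a short-lived protein that modulates cell survival and ERK signalling. It measured 299.8 and 265 normalized counts in wild-type normoxia, against 944, 804 and 878 in wild-type hypoxia. In knockout cells it measured 199.8, 194 and 181 in normoxia, against 622, 529 and 549 in hypoxia. The 4 groups did not overlap, and the lowest hypoxia library of the knockout lay well above the highest normoxia library of the wild-type. Hypoxia raised Ier3 3.09-fold in wild-type cells (95% interval 2.68 to 3.57, log2 1.63, SE 0.10, limma adjusted p = 2.76e-07). In knockout cells it raised Ier3 2.94-fold (95% interval 2.59 to 3.35, log2 1.56, SE 0.09, limma adjusted p = 1.2e-07). Only 0.407% of tested genes had a higher log2 difference than Ier3 in wild-type hypoxia, and 0.441% in knockout hypoxia.

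Egr2 encodes a zinc finger transcription factor best known for directing Schwann cells to form myelin. Its wild-type values were 243 and 244 normalized counts in normoxia, against 354, 326 and 347 in hypoxia. In knockout cells it measured 90.6, 86.2 and 107 in normoxia, against 139.7, 132 and 131 in hypoxia. Here too the 4 groups did not overlap, but the order differed from that of Ier3, since every knockout library lay below every wild-type library whatever the oxygen level. Egr2 rose 1.40-fold in wild-type hypoxia (95% interval 1.19 to 1.65, log2 0.49, SE 0.11, limma adjusted p = 0.0364) and 1.42-fold in knockout hypoxia (95% interval 1.22 to 1.64, log2 0.50, SE 0.10, limma adjusted p = 0.0101). The wild-type call was lost in limma when any one of the 5 wild-type libraries or knockout hypoxia replicate 2 was left out, with adjusted p of up to 0.204 and log2 differences of 0.46 to 0.52 over all 11 omissions. It was also lost without the filter on low values (limma adjusted p = 0.0554), and the knockout call was lost when only the knockout libraries were fitted (limma adjusted p = 0.0641).

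**Figure D2:**
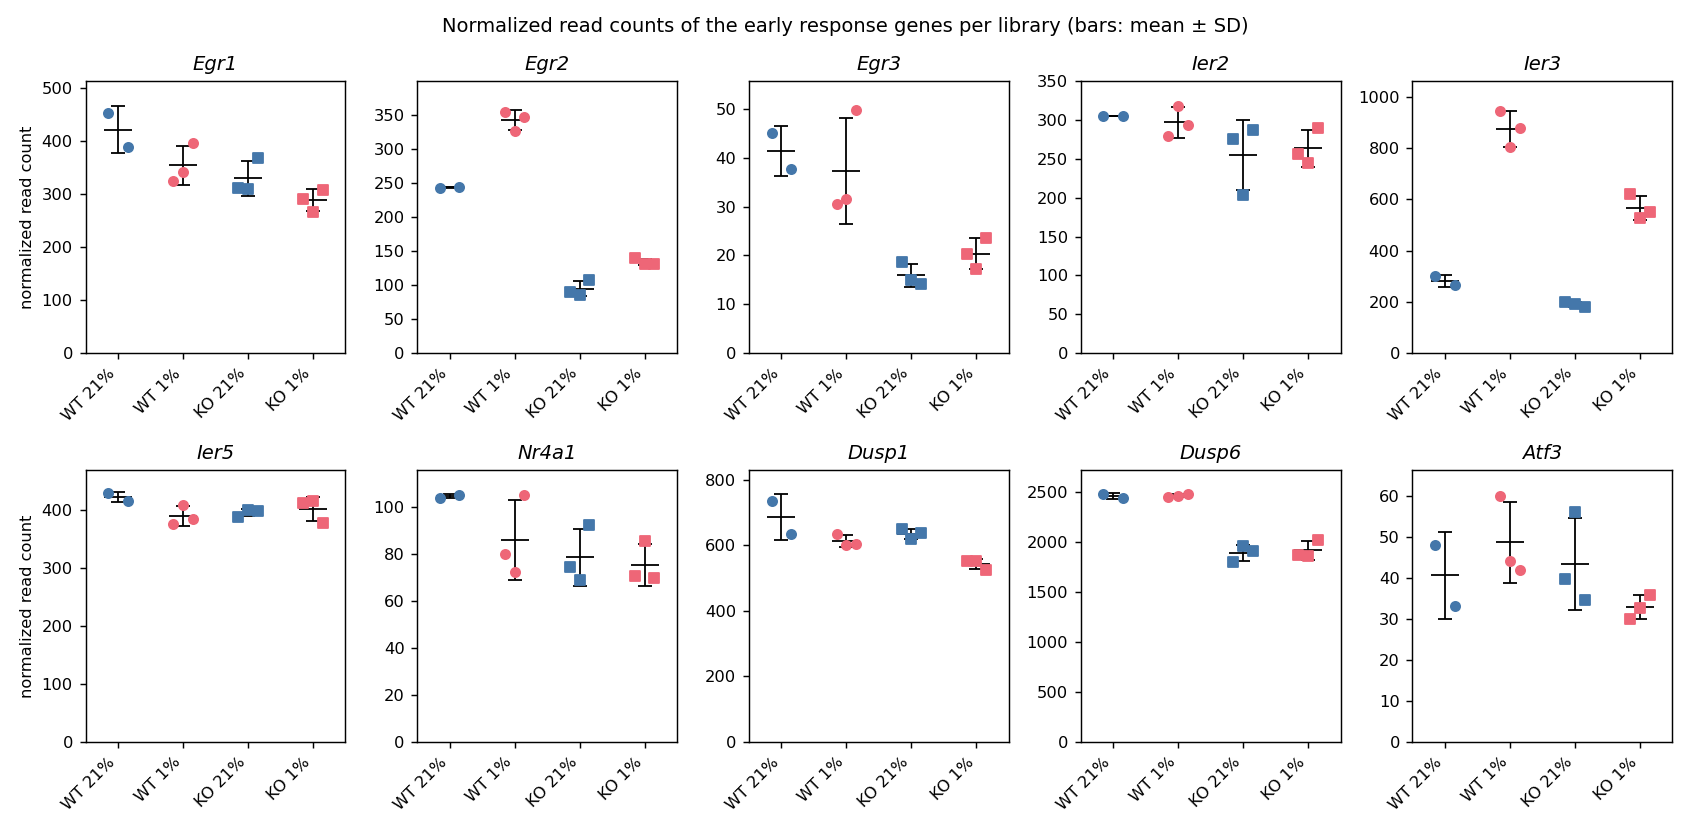
Normalized read count of each member in each library, by genotype and oxygen level, with the group mean and SD as bars and each axis starting at 0. Ier3 and Egr2 lie higher in hypoxia in both genotypes. In normoxia 8 of the 10 members, among them Egr2, Egr3, Ier3 and Dusp6, lie lower in knockout than in wild-type cells without overlap, as do 19.6% of tested genes.

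Egr1 and Egr3 were not called for hypoxia in either genotype. Egr1, the founding member of the family and a common readout of ERK activity, measured 452 and 389 normalized counts in wild-type normoxia, against 325, 342 and 396 in wild-type hypoxia, groups that overlapped. Its knockout values were 312, 309.8 and 367 in normoxia, against 291, 266 and 307 in hypoxia, which just failed to overlap. The log2 differences for hypoxia were -0.25 (SE 0.11, limma adjusted p = 0.352) in wild-type and -0.19 (SE 0.10, limma adjusted p = 0.354) in knockout cells. Egr3, needed for muscle spindles to form, measured 45 and 37.7 in wild-type normoxia, against 30.5, 31.6 and 49.7 in wild-type hypoxia. Its knockout values were 18.6, 15.0 and 14.1 in normoxia, against 20.4, 17.3 and 23.6 in hypoxia. The hypoxia differences of Egr3, at log2 -0.17 and 0.34 with SE of 0.27 and 0.25, were of the size of their errors.

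Dusp1 and Dusp6 encode phosphatases with different targets, Dusp1 acting in the nucleus mostly on p38 and JNK, and Dusp6 in the cytoplasm on ERK. Dusp6 measured 2479.9 and 2439 normalized counts in wild-type normoxia, against 2451, 2461 and 2484 in wild-type hypoxia, ranges that overlapped. Its hypoxia difference was log2 0.00 (95% interval -0.11 to 0.12) in wild-type and 0.02 (95% interval -0.08 to 0.12) in knockout cells. Dusp1 measured 737 and 636 in wild-type normoxia, against 635, 602 and 603 in wild-type hypoxia. In knockout cells Dusp1 measured 649, 618 and 637 in normoxia, against 551, 553 and 526 in hypoxia, with no overlap. Its knockout difference of log2 -0.22 (SE 0.06) missed the threshold (limma adjusted p = 0.0743) and passed it without wild-type normoxia replicate 1 or 2 (limma adjusted p = 0.0495 and 0.0485).

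Ier2 and Ier5, relatives of each other in sequence, were not called in either genotype. Ier5 lay between 376 and 428 normalized counts in all 11 libraries and Ier2 between 204 and 318. The hypoxia differences of Ier5 were log2 -0.12 (95% interval -0.28 to 0.04) and 0.02 (95% interval -0.12 to 0.17) in wild-type and knockout cells. Those of Ier2 were -0.04 (95% interval -0.33 to 0.25) and 0.06 (95% interval -0.20 to 0.32).

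Nr4a1, an orphan nuclear receptor induced by many stimuli, measured 104 and 105 normalized counts in wild-type normoxia, against 80.1, 72.4 and 105 in wild-type hypoxia. Its hypoxia difference was log2 -0.30 (SE 0.18, limma adjusted p = 0.529). Atf3, a repressor induced by stress and a target of the integrated stress response, measured 48.2 and 33.1 in wild-type normoxia, against 60.0, 44.3 and 42.0 in wild-type hypoxia. Its knockout values were 39.7, 56.2 and 34.7 in normoxia, against 30.1, 32.7 and 35.9 in hypoxia. Atf3 had log2 differences of 0.26 (SE 0.25) in wild-type and -0.37 (SE 0.23) in knockout cells, neither of which was called.

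In knockout cells the same comparison again gave 2 members that rose, Ier3 and Egr2, and 0 that fell, beside 3.15% of tested genes that rose and 0.937% that fell. At an unadjusted p under 0.05, 2 were higher and 1, Dusp1, lower, beside 17.5% of tested genes in either direction. By overlap of libraries, 2 members in each genotype lay wholly above normoxia and 2 wholly below, against 15.4% and 14.4% of tested genes in wild-type and 11.9% and 10.7% in knockout cells. The edgeR and DESeq2 tests on recovered reads called Ier3 and Egr2 and no other member in each genotype, beside 2.16% and 2.66% of tested genes in wild-type and 3.88% and 4.53% in knockout cells.

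Whether hypoxia acted differently in the 2 genotypes was tested as the difference of the hypoxia effects, knockout minus wild-type. The limma fit called 0 of the 10 members, and 0 had an unadjusted p under 0.05. Both counts were also 0 with edgeR and with DESeq2. Of all tested genes limma called 0.00679% higher and 0% lower, with 5.32% at an unadjusted p under 0.05, edgeR called 0% and DESeq2 0.0339%. For Egr2 the estimate was close to 0 (log2 0.02, 95% interval -0.30 to 0.34), and the interval for Ier3 ran from -0.35 to 0.21. For Dusp6 the interval was -0.14 to 0.17. Atf3 had the largest estimate, log2 -0.63 (95% interval -1.36 to 0.10), and Egr3 the next at 0.51 (95% interval -0.28 to 1.31). For these 2 low members a 2-fold difference lay inside the interval.

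**Figure D3:**
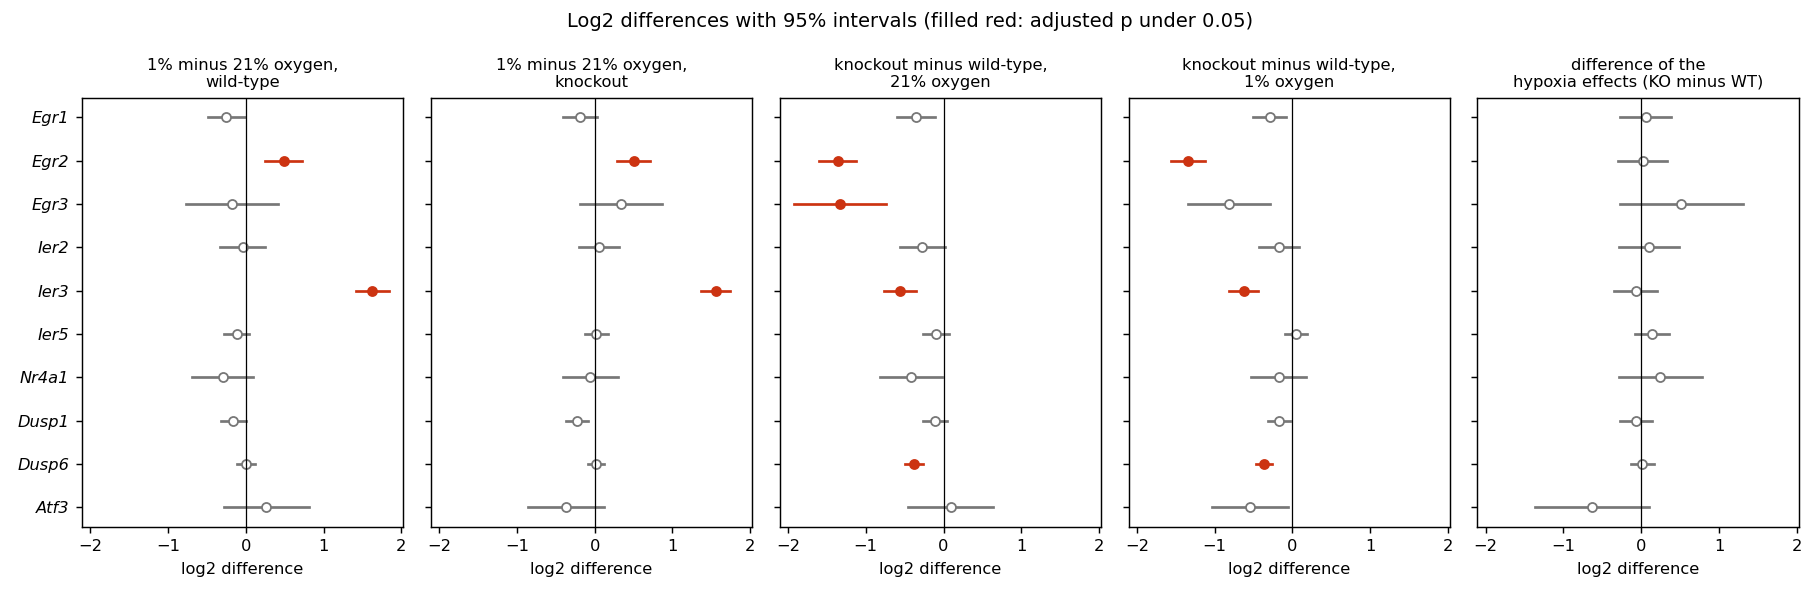
Log2 differences of the 10 members in the 5 comparisons, with 95% intervals from the limma fit. Filled red points have an adjusted p under 0.05. Ier3 and Egr2 are red in both hypoxia panels, Egr2, Ier3 and Dusp6 in both genotype panels and Egr3 in the genotype panel at 21% oxygen.

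The next question is how these genes differed between knockout and wild-type cells at each oxygen level. In normoxia 4 of the 10 members fell, Egr2, Egr3, Ier3 and Dusp6, and 0 rose, beside 5.66% of tested genes that fell and 3.44% that rose. In hypoxia 3 fell, Egr2, Ier3 and Dusp6, and 0 rose, beside 5.61% and 3.33%. At an unadjusted p under 0.05 in limma, 6 members were lower in normoxia and 7 in hypoxia, and 0 were higher in either. Beside these stand 23.4% and 21% of tested genes in either direction. DESeq2 gave 5 and 6 lower and 0 higher, beside 18.6% and 17.5%. On recovered reads, edgeR called 4 members lower at each oxygen level (5.51% and 6.18% of tested genes) and DESeq2 4 in normoxia and 3 in hypoxia (5.13% and 5.54%). In each comparison 9 of 10 members had a negative log2 difference, Atf3 in normoxia and Ier5 in hypoxia being the exceptions. The median was -0.37 in normoxia and -0.33 in hypoxia, against 0.00 for all tested genes in both. The knockout libraries lay wholly below the wild-type libraries for 8 members in normoxia (19.6% of tested genes) and for 7 in hypoxia (13.9%), and wholly above for 0 in either (18.8% and 12.4%).

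Egr2 had the most negative log2 difference of the members in each genotype comparison, though in normoxia Egr3 was close. In normoxia the mean was 244 ± 0.887 (SD, n = 2) in wild-type and 94.8 ± 11.2 (SD, n = 3) in knockout cells, 2.57-fold lower (log2 -1.36, SE 0.11, limma adjusted p = 3.18e-06). In hypoxia it went from 342 ± 14.3 to 134 ± 4.76 (SD, n = 3 each), 2.54-fold lower (log2 -1.34, SE 0.10, limma adjusted p = 1.14e-06). In the 2 comparisons 98.9% and 99.1% of tested genes had a higher log2 difference than Egr2. Of the 5 Egr2 windows only that of the upstream start held an E-box, and the counts do not separate the starts.

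Egr3, at a far lower level, fell 2.51-fold in normoxia, with means of 41.3 ± 5.16 (SD, n = 2) in wild-type and 15.9 ± 2.39 (SD, n = 3) in knockout cells (log2 -1.33, SE 0.27, limma adjusted p = 0.00762). Leaving out wild-type normoxia replicate 1 ended that call (limma adjusted p = 0.0791). In hypoxia the groups did not overlap either, but the log2 difference of -0.81 (SE 0.25) missed the threshold (limma adjusted p = 0.0561). The edgeR test on recovered reads called it (log2 -0.88, adjusted p = 0.0407). Egr1 pointed the same way without passing, at log2 -0.35 (limma adjusted p = 0.0709) in normoxia and -0.29 (limma adjusted p = 0.0975) in hypoxia. It passed in normoxia when knockout normoxia replicate 3 was left out (limma adjusted p = 0.0355).

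By genotype Ier3 fell 1.47-fold in normoxia (log2 -0.56, SE 0.10, limma adjusted p = 0.00238) and 1.54-fold in hypoxia (log2 -0.63, SE 0.09, limma adjusted p = 0.000314). The genotype and hypoxia comparisons share libraries, and side by side the hypoxia differences of Ier3 were log2 1.63 and 1.56. Dusp6 had the smallest error of the members and was 1.30-fold lower in knockout normoxia (log2 -0.38, SE 0.05, limma adjusted p = 0.000408). Its knockout libraries measured 1802, 1965 and 1910.4 normalized counts in normoxia, against 1870.0, 1857 and 2025 in hypoxia, where it was 1.29-fold lower (log2 -0.36, SE 0.05, limma adjusted p = 0.00019). Every knockout library of Dusp6 lay below every wild-type library.

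The remaining members were not called for genotype. Dusp1 had log2 differences of -0.11 in normoxia and -0.17 in hypoxia (limma adjusted p = 0.403 and 0.128), and Nr4a1 of -0.42 and -0.17 (limma adjusted p = 0.187 and 0.623). Nr4a1 measured 74.5, 68.7 and 92.3 normalized counts in knockout normoxia, below both wild-type normoxia libraries. In knockout hypoxia it measured 70.8, 85.4 and 69.7, which overlapped wild-type hypoxia at 80.1, 72.4 and 105. Atf3 stood at 0.09 in normoxia and -0.54 in hypoxia (limma adjusted p = 0.869 and 0.186). Ier2 stood at -0.27 and -0.17 and Ier5 at -0.10 and 0.04. For Ier5 the 95% intervals were -0.26 to 0.06 and -0.10 to 0.19, narrower than those of Ier2 (-0.56 to 0.02 and -0.43 to 0.08).

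Markers of other cells moved with genotype. Fibroblast and fibro-adipogenic markers, such as Pdgfra and Dcn, summed to 5544 to 6087 normalized counts in wild-type and 2716 to 3437 in knockout libraries. By limma and edgeR 7 of the 8 tested fell at each oxygen level, while DESeq2 called 5 lower in normoxia and 7 in hypoxia. Pericyte and smooth muscle markers summed to 3300.1 to 4081 in wild-type and 1813 to 2371 in knockout libraries, and 3 of 7 fell at each oxygen level. This list was mixed, with 1 of 7 higher at each oxygen level at an unadjusted p under 0.05 in limma. In normoxia Rgs5 measured 405 and 484 in wild-type, against 580, 498 and 496 in knockout cells. Abcc9 measured 50.3 and 69.6 in wild-type normoxia, against 76.9, 90.0 and 91.2 in knockout normoxia. Muscle differentiation markers, such as Myog and Acta1, summed to 23148 to 29537 in wild-type and 35883 to 41196 in knockout libraries. By limma and edgeR 6 of 10 rose in normoxia and 8 of 10 in hypoxia, while DESeq2 called 8 and 9 higher. No defining marker on the fibroblast, pericyte or differentiation lists was at 0 in a whole group, but some were near 0. Over the 11 libraries Kcnj8 measured 0 to 1.55 normalized counts, Dpt 0 to 3.89 and Pi16 0 to 4.22, too low to be tested. The part of these marker lists in the genotype differences of Egr2, Egr3, Ier3 and Dusp6 was not tested. In bulk RNA fewer cells of a type and less RNA per cell cannot be told apart. In the hypoxia comparisons limma, edgeR and DESeq2 each called 0 of the 8 fibroblast markers in wild-type (1 higher at an unadjusted p under 0.05) and 1, which rose, in knockout cells. Each also called 0 of the 10 differentiation markers, with 2 lower in wild-type and 1 lower in knockout cells at an unadjusted p under 0.05. The pericyte sum was 1813 to 2151 in knockout normoxia and 2219 to 2371 in knockout hypoxia, where Ier3 and Egr2 rose. Of its 7 tested markers limma and edgeR called 0 there (1 higher at an unadjusted p under 0.05) and DESeq2 called 1 higher, and its part in those rises was not tested. Of the 3 Schwann cell markers tested, by limma 1 rose by genotype in normoxia and 2 in hypoxia (DESeq2 called 1 in each), and their part in the difference of Egr2 was not tested.

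**Figure D4:**
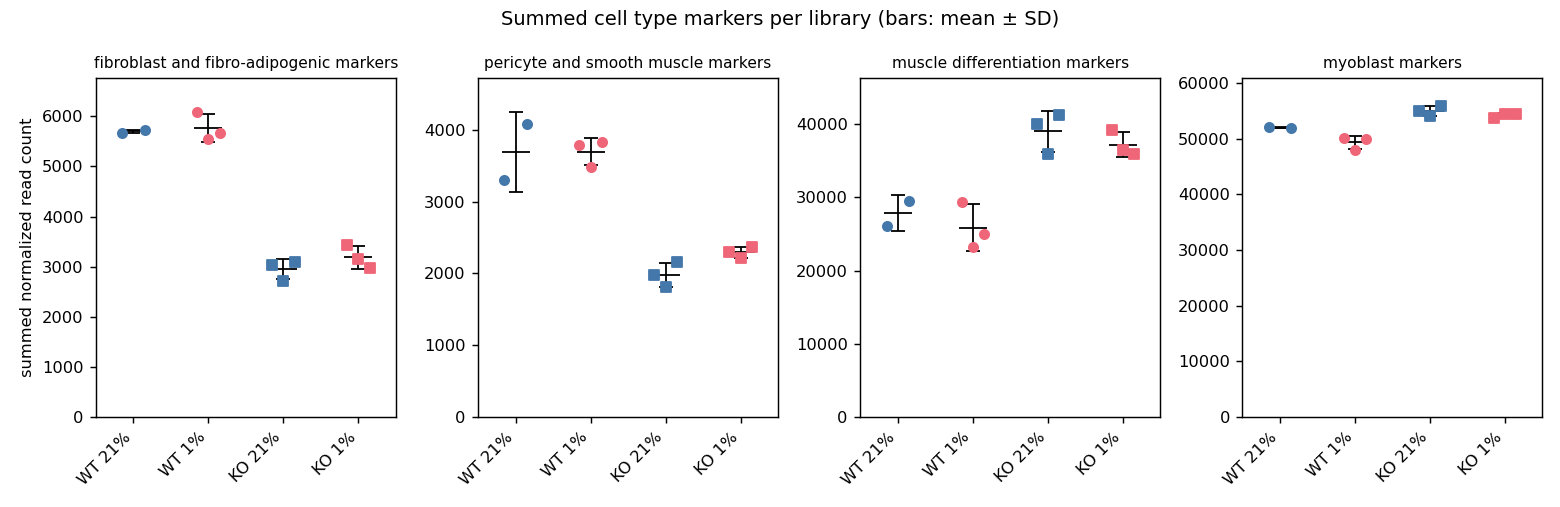
Summed normalized counts of 4 marker lists in each library, by genotype and oxygen level, with the group mean and SD as bars and axes starting at 0. Fibroblast and pericyte sums are lower and differentiation sums higher in every knockout library than in every wild-type library, and the pericyte sum is higher in knockout hypoxia than in knockout normoxia.

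Members varied together to different degrees. Over the 11 libraries, which share genotype and oxygen groups and the markers above, Pearson's r of log2 values was 0.92 for Egr2 and Dusp6, 0.90 for Egr3 and Dusp6 and 0.87 for Egr2 and Egr3. Ier3 and Egr2, which both rose in hypoxia, had r = 0.70. Egr1 followed Nr4a1 (r = 0.76) and Dusp1 (r = 0.74) more than Egr2 (r = 0.51). Within groups, wild-type hypoxia replicate 3 was the highest of its group for Egr1, Egr3 and Nr4a1, by 0.16, 0.44 and 0.31 log2 units over the group mean. That library was also the highest for Dusp6, by 0.01, and the lowest for Atf3, at -0.19 from the group mean. Knockout normoxia replicate 3 was the highest of its group for Egr1, Egr2, Ier2 and Nr4a1, by 0.16, 0.19, 0.18 and 0.24. The same library was the lowest of its group for Egr3, Ier3 and Atf3, at -0.15, -0.08 and -0.29, so the members did not shift together there.

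Among tested genes outside the list, those with the highest r over the 11 libraries were named for each member with a mean of at least 50. Genes without a symbol, predicted models, clones and pseudogenes were left out of the ranking. For Ier3 they were P4ha1, a collagen prolyl hydroxylase subunit, Nrn1 and the secreted protein gene Stc1, each at r = 0.99. For Egr2 they were Net1, Medag and Loxl2, a lysyl oxidase relative, each at 0.99. Dusp6 was most like H6pd, Lhfp and Enpp1 (0.99 each). For the other members the highest r were lower. Egr1 was most like Golga3, Hoxc13 and Sqstm1 (0.91 to 0.92), Nr4a1 like Fyco1, Lzts3 and Clip1 (0.90 to 0.93) and Dusp1 like Acta2, Tagln2 and Prkag1 (0.93 to 0.94). Ier2 was most like Mrpl52, Nap1l5 and Nudcd3 (0.91 to 0.92) and Ier5 like Gramd3, Dennd4b and Xkr5 (0.83 to 0.86). Nap1l5 was low, with group means of 5.50 to 9.60 normalized counts. All these r are the highest of many genes over only 11 libraries, so they run high by selection.

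The same stimuli act on other early genes. The counts for the lists below stand beside the following shares of all tested genes by limma. In hypoxia 1.7% rose and 0.468% fell in wild-type, and 3.15% and 0.937% in knockout cells. By genotype 5.66% fell and 3.44% rose in normoxia, and 5.61% and 3.33% in hypoxia. Of 7 AP-1 subunits, the leucine zipper factors induced beside the EGR family, 3 rose and 0 fell in each hypoxia comparison, with list medians of log2 0.30 in wild-type and 0.45 in knockout cells. Fosl2 rose by log2 0.67 in wild-type and 0.63 in knockout cells (SE 0.09 and 0.08), Fosl1 by 0.39 and 0.47, and Jun by 0.30 and 0.45. By genotype 2 fell in normoxia, Junb (log2 -0.61, SE 0.10) and the low Fosb (log2 -1.43, SE 0.37), and 2 fell in hypoxia, Junb (-0.38) and Fosl2 (-0.28). Of 33 other immediate early genes tested, 6 rose and 1 fell in wild-type hypoxia and 7 rose and 1 fell in knockout hypoxia. Rhob, a small GTPase, rose by log2 0.40 and 0.52, Tnfaip3, a brake on NF-kB signalling, by 1.00 in wild-type, and Klf2 by 0.72 in knockout cells, while Btg2 fell by 0.41 there. For genotype 2 rose and 5 fell in normoxia, led by Sgk1 (log2 -0.59) and Plk3 (-0.71) among the fallen and Plk2 (0.32) among the risen. In hypoxia 2 rose, Gadd45a (0.54) and Plk2 (0.35), and 3 fell, led by Maff (-0.38). Members of this list were called in both directions in each of these 4 comparisons.

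Closest to the members are their family relatives and partners, of which 5 were tested. Nr4a2, a close relative of Nr4a1, fell in knockout cells at both oxygen levels (log2 -0.66, SE 0.07 in normoxia and log2 -0.72, SE 0.06 in hypoxia). Nab2, a co-repressor that binds EGR proteins and is itself an EGR target, fell likewise (-0.29 and -0.28), and hypoxia raised it in knockout cells (0.27). Ier5l fell by genotype in normoxia (-0.49) and was raised by hypoxia in knockout cells (0.52). None of the 5 was called in wild-type hypoxia by limma (1 had an unadjusted p under 0.05) or edgeR, and DESeq2 called 1. In all, 2 rose in knockout hypoxia, and 3 and 2 fell by genotype in normoxia and hypoxia.

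Other phosphatases of the DUSP family were called in a few cases. Of 14 tested, 2 fell and 1 rose by genotype in normoxia, and 1 fell and 0 rose in hypoxia. Of all tested genes 5.66% fell and 3.44% rose in normoxia, and 5.61% and 3.33% in hypoxia. Dusp5, a nuclear ERK phosphatase, fell at both oxygen levels (log2 -0.47, SE 0.09 and log2 -0.46, SE 0.08). Dusp4 fell in normoxia (-0.27), where Dusp10 rose (0.25). Hypoxia raised 1 of 14 in each genotype, beside 1.7% of all tested genes in wild-type and 3.15% in knockout cells. These were Dusp10, by 0.29 in wild-type, and Dusp3, by 0.34 in knockout cells. Of 13 ERK feedback and output genes, 4 fell by genotype in normoxia, among them Il1rl1 (log2 -0.78), Spry1 (-0.67) and Spred1 (-0.24). By genotype in hypoxia 2 fell, Il1rl1 (-0.94) and Spred1 (-0.31). Spry1 and Spred1 encode inhibitors of Ras to ERK signalling that ERK itself induces. Hypoxia changed 0 of 13 in wild-type cells by limma, edgeR or DESeq2 (3 at an unadjusted p under 0.05 in limma) and raised 1, Spred2 (0.39), in knockout cells.

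Of 29 kinases and factors upstream of the members, 1 rose and 1 fell in wild-type hypoxia and 2 rose in knockout hypoxia. Map2k1, which encodes the ERK kinase MEK1, rose in hypoxia by log2 0.46 and 0.38, and Srf, encoding serum response factor, fell by 0.31 in wild-type cells. Map2k6, a p38 kinase, rose by 0.70 in knockout hypoxia. For genotype, Mapk3, which encodes ERK1, fell in normoxia (log2 -0.38) and in hypoxia (log2 -0.33), where it was the 1 gene of this list called by limma, while edgeR called 2 lower. In normoxia 2 rose and 3 fell, beside 3.44% and 5.66% of all tested genes. The called ones included Map2k6 (-0.72) and Rps6ka5 (0.44). Of 16 genes of the integrated stress response around Atf3, the only one called by limma in either hypoxia comparison was Ddit4, at log2 1.42 and 1.40. In knockout hypoxia DESeq2 called 1 higher and 1 lower. Ddit4 encodes an mTORC1 inhibitor that is also a known hypoxia-induced gene. By genotype Ddit4 fell at both oxygen levels (-0.61 and -0.62) and Nupr1 in hypoxia (-0.43). For Atf3 itself no comparison was called.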

How the data were processed

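The table the authors deposited holds signal for 22104 Ensembl genes in 11 libraries, made by dividing read counts by a size factor for each library. Per the submitters' processing notes, the tools were STAR, RSEM, HTSeq, Picard, bcl2fastq and DESeq2, with build mm10. Versions, the counting tool behind the table and its strand setting are not given in the sources used here. Whole reads were recovered for 100% of values within 0.01 read, from 18707697 to 33613328 per library. Symbols were found for 21805 identifiers.

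The 14729 genes that reached 10 in 2 or more libraries were tested. A pseudocount of 1 was added before taking log2, so fold changes are on the log2(value + 1) scale and understate the change of low genes. A model with 4 group means was fitted with limma 3.58.1 (trend of variance on level) in R 4.3.3, and the fit was tested on simulated data. It gave 5 two-sided comparisons, with Benjamini-Hochberg adjustment over the 14729 genes. Genes with an adjusted p under 0.05 are said to have been called, to have risen or to have fallen. Recovered reads were also tested with edgeR 4.0.16 and DESeq2 1.42.0, and other pseudocounts, filters, scalings, sample sets and each library left out were tried. For pairs within a group, chi-square divided by its degrees of freedom was 4.33 to 20.9, so no library was counted as a duplicate of another. Promoter sequences are RefSeq's, on GRCm38.p6, and gene positions come from GENCODE M21.

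The members and gene lists were chosen with earlier results of these data known. All 10 members were named. Of each other process list, up to 3 called genes per comparison with the smallest adjusted p were named, as were the check genes. For each member with a mean of at least 50, the 3 genes most like it were named, with the exclusions given above. In the lists, 7 family relatives, 34 other immediate early genes and 14 ERK feedback genes were sought, of which 5, 33 and 13 were tested. The sum of one marker list is not reported here.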

Additional observations from a re-analysis of the deposited data

How the results depend on the processing

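Calls on members changed as given beside the results for Egr1, Egr2, Egr3 and Dusp1. Of 121 fits that left out a library for a called member, 114 kept the call, and 403 of 429 for a member not called kept direction and side, with 23 reversals and 3 calls gained. Other settings kept 85 of 87 called and 295 of 296 other results, and Egr3 was not tested where a value of 50 was required.

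Whole-table counts moved when only the groups compared were fitted, to 35 lower in wild-type hypoxia and to 294 higher and 555 lower by genotype in normoxia. For the difference between hypoxia effects 0 genes were higher with a pseudocount of 5, with a value of 50 required or with edgeR, and DESeq2 gave 4 higher and 1 lower. Over omissions of one library, wild-type hypoxia gave 143 to 248 higher and 18 to 72 lower. Knockout hypoxia gave 303 to 479 higher and 64 to 156 lower. Genotype in normoxia gave 229 to 530 higher and 439 to 835 lower, and in hypoxia 318 to 497 higher. The difference gave 1 to 2 higher and 0 to 1 lower. Whole-table counts were lowest without wild-type normoxia replicate 2 for both comparisons that use wild-type normoxia, and without knockout hypoxia replicate 3 or 2 in knockout hypoxia. A group left with 1 library is assumed to vary like the others. The cause was not tested, beyond the smaller number of samples in these fits.

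Omissions turned the sign of small log2 differences that were not called. In wild-type hypoxia Ier2 ranged from -0.0902 to 0.00411, Dusp6 from -0.00829 to 0.0159 and Atf3 from -0.000773 to 0.53. In knockout hypoxia Ier2 ranged from -0.0963 to 0.15, Ier5 from -0.00173 to 0.0656, Nr4a1 from -0.15 to 0.0668 and Dusp6 from -0.0213 to 0.0463. Atf3 by genotype in normoxia ranged from -0.17 to 0.36. For the difference between hypoxia effects, Egr1 ranged from -0.0488 to 0.17, Egr2 from -0.048 to 0.11, Ier2 from -0.0568 to 0.19, Ier3 from -0.16 to 0.0183, Dusp1 from -0.17 to 0.0402 and Dusp6 from -0.0251 to 0.0425.

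No paired analysis was possible because the labels give no number that links libraries of different groups. The fit of only the groups compared was not run for the difference between hypoxia effects, which uses all 4. Among the members the largest log2 SE were those of the low genes Egr3 and Atf3, at 0.37 and 0.34 in the difference between hypoxia effects, and what depth contributed to them was not tested.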
